A study of Xenopus tropicalis with 26 samples.

Results

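Described here are 273 features of the western clawed frog Xenopus tropicalis. By mean level they were abundant before gastrulation, low at gastrula and back to at least 0.8 of their first level in tailbud embryos. They were chosen by their own read counts from 3′ end libraries, as 273 of all 27836 features counted, or 0.981%. Levels are CPM, the counts of a feature per 1000000 counts of its library, and so are shares of a library and not amounts per embryo. The maternal level M was the mean CPM of the 4 libraries of stages 6 and 8. A feature was selected on an M of at least 20 CPM, a stage 11 mean of at most 0.5 of M and a stage 28 mean of at least 0.8 of M. Of the 6821 features with such an M, called maternal below, 2764 met the limit at stage 11. The 273 members are those that also met the limit at stage 28, 4.0% of the maternal features, and the other 2491 are called features that dip without return. The remaining 4057 maternal features did not dip to 0.5 of M.

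A frog egg carries a store of RNA made by the mother, and the embryo divides on that store with little transcription of its own. Transcription from the embryo's genome starts widely at the midblastula transition, and much of the maternal store is then broken down. A gene whose maternal RNA is removed can be transcribed again in the embryo, so a level that falls and comes back is one known outcome of this handover. Stored RNAs can also gain or lose their poly(A) tail in the cytoplasm of the egg and early embryo, and tail length was not measured here.

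The libraries came from whole transcriptome target sequencing (WTTS), which selects polyadenylated pieces after fragmentation and so counts transcript ends, and from RNA-seq. Whole-embryo pools of 2 families, the biological replicates, gave 10 WTTS libraries: family 2 and family 1, each at stage 6, 8, 11, 15 and 28. The same pools at stages 6, 8 and 11 gave 6 RNA-seq libraries, so RNA-seq holds the dip but not the return. Adult whole-body RNA came from 1 female, in 2 technical WTTS repeats, and from a mixed-sex pool, in 7 WTTS protocol trials and 1 RNA-seq library. In the usual staging, stages 6 and 8 are cleavage and blastula, stage 11 is gastrula, stage 15 neurula and stage 28 tailbud. The embryos and adults carried no treatment or mutation named in the labels. The sources used here do not give the strain, the number of embryos in a pool or the parents' origin.

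Embryo WTTS libraries held 1536128 to 6276132 counts and embryo RNA-seq libraries 110710673 to 131001449. A few features filled much of the WTTS libraries from stage 11 on. The 12 features above 1% of any embryo WTTS library together held 4.49% to 8.35% of the 4 libraries of stages 6 and 8. They held 20.1% and 26.7% at stage 11 in family 2 and family 1, 24.2% and 28.6% at stage 15, and 9.04% and 16.8% at stage 28. Such features lower the CPM of all others, so the depth of the dip depended on scaling. TMM scaling sets libraries on a common level through most features. With it the median stage 11 level over M of the 273 members was 0.501 in place of 0.389, and 134 of them met the limit of 0.5. The rule run on TMM values chose 169 features, 118 of them among the 273, and 92 members were chosen under all 4 scalings tried: column totals, totals without the 12 features, TMM and DESeq2 size factors. Embryos were taken whole, so fewer cells with a transcript and less of it per cell cannot be told apart.

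Identifiers of the XLOC form name the features, and neither the files nor the reference gene table pair them with gene symbols. Members are therefore given by identifier and position, and gene roles and sequences are not given. Scaffold positions are as the files give them, on a build that the sources used here do not name, and their counting base is not stated either.

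The members began at moderate levels. M ran from 20.1 to 875 CPM with a median of 41.1 and quartiles of 28.0 and 69.2 CPM, while features that dip without return had a median M of 63.8 CPM. Median member levels through stages 6, 8, 11, 15 and then 28 were 40.3, 43.1, 14.7, 20.04 and 53.0 CPM. The stage 6, 8, 11 and 28 levels chose the members and are descriptions only. Together the members took 1.66% to 1.80% of the 4 WTTS libraries of stages 6 and 8. Their share was 0.663% and 0.661% at stage 11 in family 2 and family 1, 0.874% and 0.832% at stage 15, and 2.49% and 2.40% at stage 28.

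Stage 11 over M had a median of 0.389 and ran from 0.072 to 0.4999, and stage 28 over M had a median of 1.12 and ran from 0.802 to 18.3. Each family's part in the means that chose the members can be read from its own libraries. The median member stood at 0.376 of M in family 2 and 0.354 in family 1 at stage 11, at 0.470 and 0.422 at stage 15, and at 1.22 and 1.07 at stage 28. Both stage 11 libraries lay below all 4 earlier ones for 261 members, or 95.6%, against 19.8% of all features. Both stage 28 libraries lay above both stage 11 ones for 268 members, against 23.2% of all features. The rule used these same libraries, so nothing is read from these medians and counts.

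**Figure D1:**
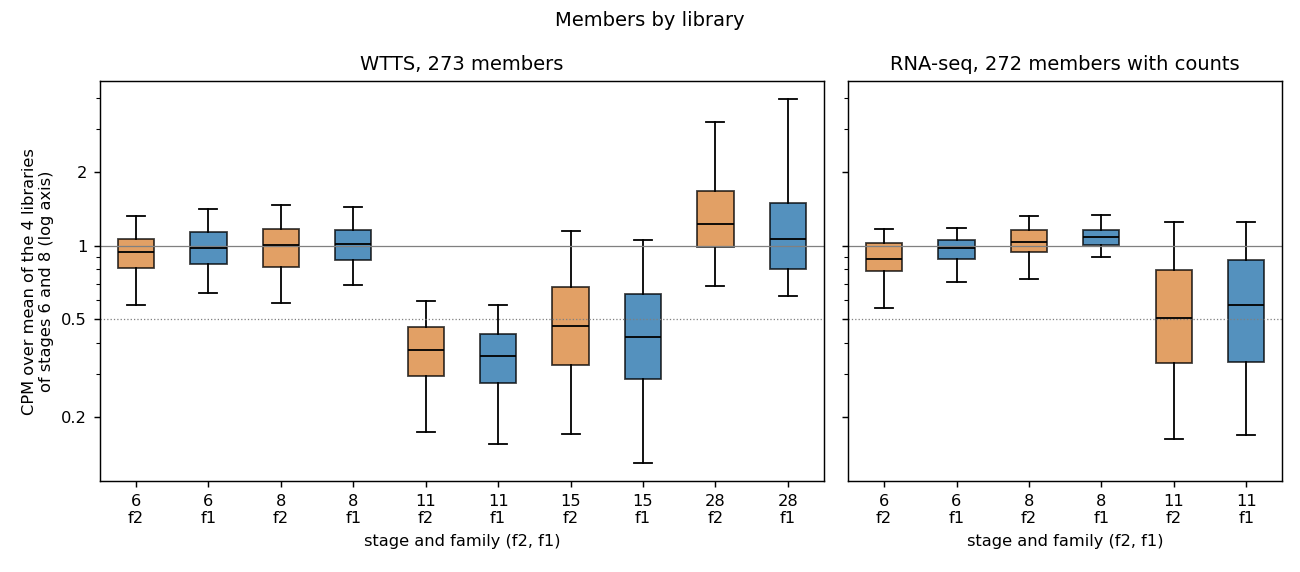
Level of the members in each embryo library over the mean of the 4 libraries of stages 6 and 8 of the same method, on a log axis; f2 (orange) and f1 (blue) are family 2 and family 1. Boxes show quartiles and the median, whiskers the 5th and 95th percentiles over members, the solid line 1 and the dotted line 0.5. WTTS medians at stage 11 are 0.376 and 0.354, and RNA-seq medians at stage 11 are 0.509 and 0.571 with wider boxes.

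Membership was set by few reads for part of the list. At stage 11 a member had 4 to 803 counts, median 29, in family 2 and 5 to 1543 counts, median 58, in family 1, and 44 members had under 50 counts in the 2 libraries together. Just inside the limits stood an M of 20.1 CPM, a stage 11 level of 0.49985 of M and a stage 28 level of 0.802 of M. Just outside stood 19.8 CPM, 0.50009 and 0.799. Within the rule, 61 members had a stage 11 level above 0.45 of M, 61 a stage 28 level below 0.9 of M and 47 an M under 25 CPM. None of the 3 held for 132 members.

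The rule applied within each family picked lists that overlapped in part. It chose 296 features in family 2 alone and 279 in family 1 alone, of which 191 and 167 were members. The lists shared 110 features, 37.2% of the family 2 list and 39.4% of the family 1 list, and all 110 were members. The dip limit was met by 217 members in family 2 and 240 in family 1, and the return limit by 256 in family 2 and 207 in family 1.

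XLOC_011164 had the highest M of the members. It lies on scaffold_3 from 89810747 to 89832523, minus strand. In WTTS it had 1160 and 612 CPM at stage 6 in family 2 and family 1, 1030 and 703 at stage 8, 422 and 362 at stage 11, 365 and 292 at stage 15, and 1130 and 655 at stage 28. Both stage 11 libraries lay below all 4 earlier ones, while its families stood far apart at stages 6, 8 and 28. Stage 11 of family 1 was above 0.5 of that family's own mean of stages 6 and 8, so only family 2 met the dip limit alone. In RNA-seq it had 361 and 355 CPM at stage 6, 493 and 426 at stage 8, and 261 and 368 at stage 11. The stage 11 library of family 1 overlapped the stage 6 values. The RNA-seq log2 change, stage 11 against the mean of stages 6 and 8, was -0.51 (SE 0.17, edgeR adjusted p = 0.0373). That call was lost in 5 of 13 alternatives, among them without either stage 6 library, without family 2 of stage 8 and without family 2 of stage 11, where the log2 change was -0.28.

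XLOC_006721 came next in M, on scaffold_2 from 109835980 to 109853970, plus strand. WTTS values were 490 and 370 CPM at stage 6 in family 2 and family 1, 292 and 535 at stage 8, 128 and 231 at stage 11, 131 and 169 at stage 15, and 432 and 298 at stage 28. Stage 11 lay below the earlier libraries in WTTS. Taken alone, family 1 met neither limit: stage 11 was above 0.5 and stage 28 below 0.8 of its own mean of stages 6 and 8. In RNA-seq it had 1060 and 1010 CPM at stage 6, 674 and 996 at stage 8, and 520 and 906 at stage 11. The families parted at stages 8 and 11 and the stages overlapped. Its RNA-seq log2 change of -0.53 (SE 0.27, edgeR adjusted p = 0.127) was not called. With family as a block it was -0.57 and called, and without family 1 of stage 11 it was -1.03 and called.

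The deepest dip belonged to XLOC_008104, on scaffold_2 from 127513299 to 127516365, minus strand, a feature of 3067 bp. In WTTS it had 119 and 86.5 CPM at stage 6 in family 2 and family 1, 102 and 127 at stage 8, 5.25 and 10.3 at stage 11, 106 and 229 at stage 15, and 115 and 331 at stage 28. Stage 11 stood far below every other stage, on 10 and 44 counts, with exact Poisson 95% intervals from 2.52 to 9.66 and from 7.50 to 13.9 CPM that cover counting error only. At stage 15 it was back at 1.54 times M. RNA-seq showed 11.9 and 9.96 CPM at stage 6, 7.79 and 8.91 at stage 8, and 0.600 and 0.883 at stage 11. No stage 11 value came near an earlier one, and the log2 change was -3.83 (SE 0.34, edgeR adjusted p = 0.000158).

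XLOC_014756 was second by depth of the dip, on scaffold_4 from 125129233 to 125136732, minus strand. The WTTS libraries gave 38.9 and 36.7 CPM at stage 6 in family 2 and family 1, 26.7 and 32.6 at stage 8, 4.20 and 3.52 at stage 11, 7.10 and 7.84 at stage 15, and 38.8 and 23.3 at stage 28. It stayed low at stage 15 and was back at 0.921 of M at stage 28. RNA-seq gave 45.4 and 36.3 CPM at stage 6, 48.9 and 44.1 at stage 8, and 10.1 and 8.76 at stage 11, with no overlap. The log2 change was -2.36 (SE 0.20, edgeR adjusted p = 0.00012).

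RNA-seq of the same embryo pools gave a measure of the dip that the rule had not used. Most members were lower at stage 11 in RNA-seq, with a smaller median fall than in features that dip without return. The test was edgeR's quasi-likelihood F-test over 19413 features, with Benjamini-Hochberg adjustment over all of them and an adjusted p below 0.05 as a call. Of the 272 members tested, 175 (64.3%) were called lower, against a background of 29.7% of features. Of the 175, 132 fell by a log2 of at least 1, as did 4228 of the 5771 features called lower. A single member (0.368%) was called higher, against 34.2% of features, and 96 were not called. The median log2 change was -1.002 with quartiles of -1.63 and -0.45, against 0.08 over all features tested. One member had no RNA-seq count at any of stages 6 and 8 and was not tested. The libraries are separate from those that chose the members, but the embryo pools are the same.

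All other maternal features were measured the same way. Of features that dip without return, 2225 of 2486 (89.5%) were called lower and 15 (0.603%) higher, with a median log2 change of -1.61. Among maternal features without a dip, 1260 of 4049 (31.1%) were called lower and 1074 (26.5%) higher, with a median of -0.05. The same counts were taken within 3 bands of the WTTS dip, whose depths were not matched inside a band. Where stage 11 was at most 0.25 of M, 34 of 39 members (87.2%) were called lower, against 97.5% of features that dip without return. Between 0.25 and 0.4 of M it was 70 of 106 members (66.0%) against 89.2%, and between 0.4 and 0.5 it was 71 of 127 (55.9%) against 78.3%. Medians in these bands were -1.89, -1.01 and -0.78 for members, against -2.55, -1.39 and -0.96. Median stage 11 levels over M in the bands were 0.199, 0.346 and 0.448 for members, against 0.165, 0.331 and 0.448. The differences between the classes were not tested.

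**Figure D2:**
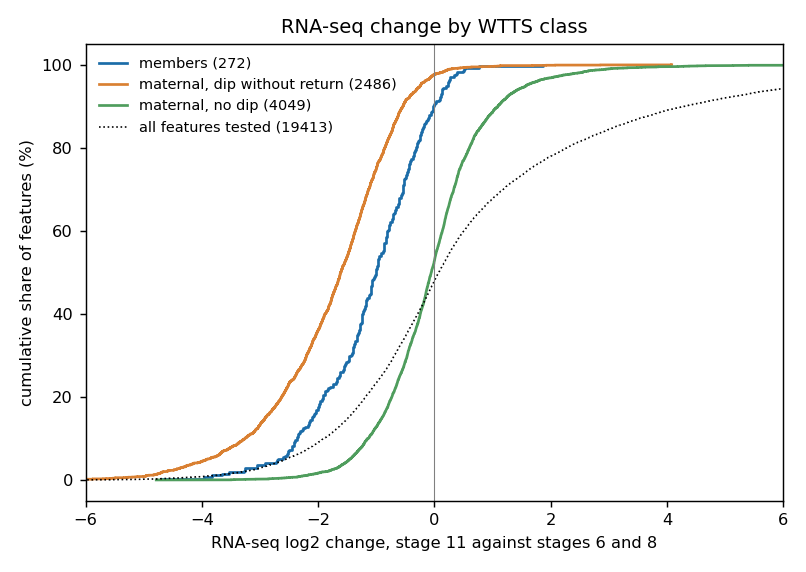
Cumulative share of features by RNA-seq log2 change, stage 11 against the mean of stages 6 and 8, with the axis clipped where the curves flatten. Members (272) have a median of -1.002, features that dip without return (2486) of -1.61, maternal features without a dip (4049) of -0.05, and all features tested (19413, dotted) of 0.08.

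By plain CPM the dip was smaller in RNA-seq than in WTTS, where low stage 11 values had chosen the members. The members took 1.31% and 1.39% of the RNA-seq libraries at stage 6 in family 2 and family 1, 1.45% and 1.4998% at stage 8, and 0.717% and 0.812% at stage 11. The median of stage 11 over the earlier mean was 0.543, from 0.043 to 4.08, against 0.360 in features that dip without return and 1.06 in maternal features without a dip. A level of at most 0.5 was found for 121 of 272 members (44.5%). It was found for 20.4% of all features with a count and 69.8% of those that dip without return. Both stage 11 libraries lay below all 4 earlier ones for 169 members (61.9%), against 21.5% of all features and 86.6% of features that dip without return. They lay above all 4 for 10 members (3.66%), against 36.8% and 1.16%. In all, 37 members (13.6%) had a ratio above 1, against 58.3% of all features with a count and 3.65% of those that dip without return. No single feature took over 0.770% of an embryo RNA-seq library, whereas one took 17.6% of the stage 11 WTTS library of family 1. With TMM scaling in both methods the members' medians were close. Stage 11 over M was 0.501 in WTTS, and the RNA-seq log2 change was -1.002, where a log2 of -1 is a ratio of 0.5. The smaller dip in RNA-seq was thus seen by plain CPM and not in these TMM medians. Other scalings were not compared in this way, and low WTTS stage 11 values had chosen the members.

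Lists chosen on the other 3 scalings were called lower in RNA-seq at a higher share. It was 133 of 169 (78.7%) for the list by TMM values, 117 of 143 tested (81.8%) by DESeq2 size factors and 129 of 180 (71.7%) by totals without the 12 large features. For the 110 members that met the rule in each family it was 75 of 109 tested (68.8%). Members were measured in the same libraries and are not independent of each other, so no interval is given for the 64.3%. Fits on all 6 libraries, with other tools, scalings, filters or contrasts, called 60.7% to 70.2% of members lower, against 24.2% to 32.3% of features. Without family 2 of stage 11, the members' median log2 change was -0.942, against 0.058 over all features tested.

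**Figure D3:**
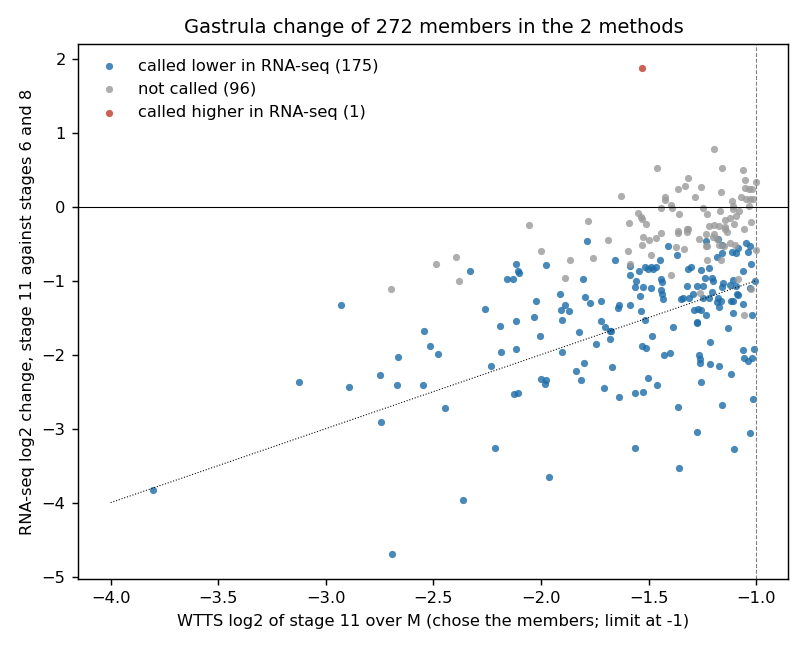
Each point is 1 of 272 members: WTTS log2 of stage 11 over M, which chose the members (limit at -1, dashed), against the RNA-seq log2 change. WTTS values are by column totals and RNA-seq changes by TMM scaling. Equal changes lie on the dotted line, so distance from it mixes method and scaling. Blue points were called lower in RNA-seq (175), grey ones were not called (96) and the red one was called higher (1).

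The largest fall in RNA-seq was that of XLOC_010034, on scaffold_3 from 72404037 to 72466738, plus strand. RNA-seq gave 88.3 and 92.5 CPM at stage 6 in family 2 and family 1, 99.5 and 98.1 at stage 8, and 4.43 and 3.63 at stage 11. The families were close at each stage, and stage 11 was far below both others. The log2 change was -4.70 (SE 0.16, edgeR adjusted p = 5.5e-06). WTTS gave 41.7 and 27.8 CPM at stage 6, 33.9 and 23.1 at stage 8, 3.68 and 6.10 at stage 11, 15.5 and 5.11 at stage 15, and 55.3 and 26.8 at stage 28. The neurula level was up in family 2 but not in family 1, and both families were up by tailbud.

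XLOC_025763 had the next largest fall, on scaffold_9 from 20203652 to 20217267, plus strand. It had 47.0 and 48.4 CPM in RNA-seq at stage 6 in family 2 and family 1, 44.9 and 44.5 at stage 8, and 3.65 and 2.92 at stage 11. Again the families were close and stage 11 stood apart, with a log2 change of -3.96 (SE 0.19, edgeR adjusted p = 1.64e-05). WTTS values were 28.2 and 20.2 CPM at stage 6, 22.1 and 19.0 at stage 8, 4.73 and 3.99 at stage 11, 5.77 and 7.50 at stage 15, and 21.6 and 24.9 at stage 28. The feature overlaps one on the other strand, and without strand in the counting, reads of such a pair cannot be told apart.

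XLOC_004231 was the member called higher in RNA-seq, on scaffold_10 from 10051784 to 10080690, minus strand. In WTTS it had 1.91 and 0.524 CPM at stage 6 in family 2 and family 1, 122 and 1.02 at stage 8, 20.5 and 1.17 at stage 11, 9.32 and 5.46 at stage 15, and 43.9 and 37.1 at stage 28. Its M thus rested on 1 library, family 2 of stage 8, and in family 1 it was never high before stage 28. RNA-seq gave 0.244 and 0.270 CPM at stage 6, 0.206 and 0.282 at stage 8, and 1.55 and 0.496 at stage 11. The pool with 122 CPM in WTTS had 25 counts in RNA-seq. The log2 change was 1.87 (SE 0.49, edgeR adjusted p = 0.0143), and without family 2 of stage 11 it was 0.84 and not called. The data go against the label of a maternal transcript that dips for this feature.

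**Figure D4:**
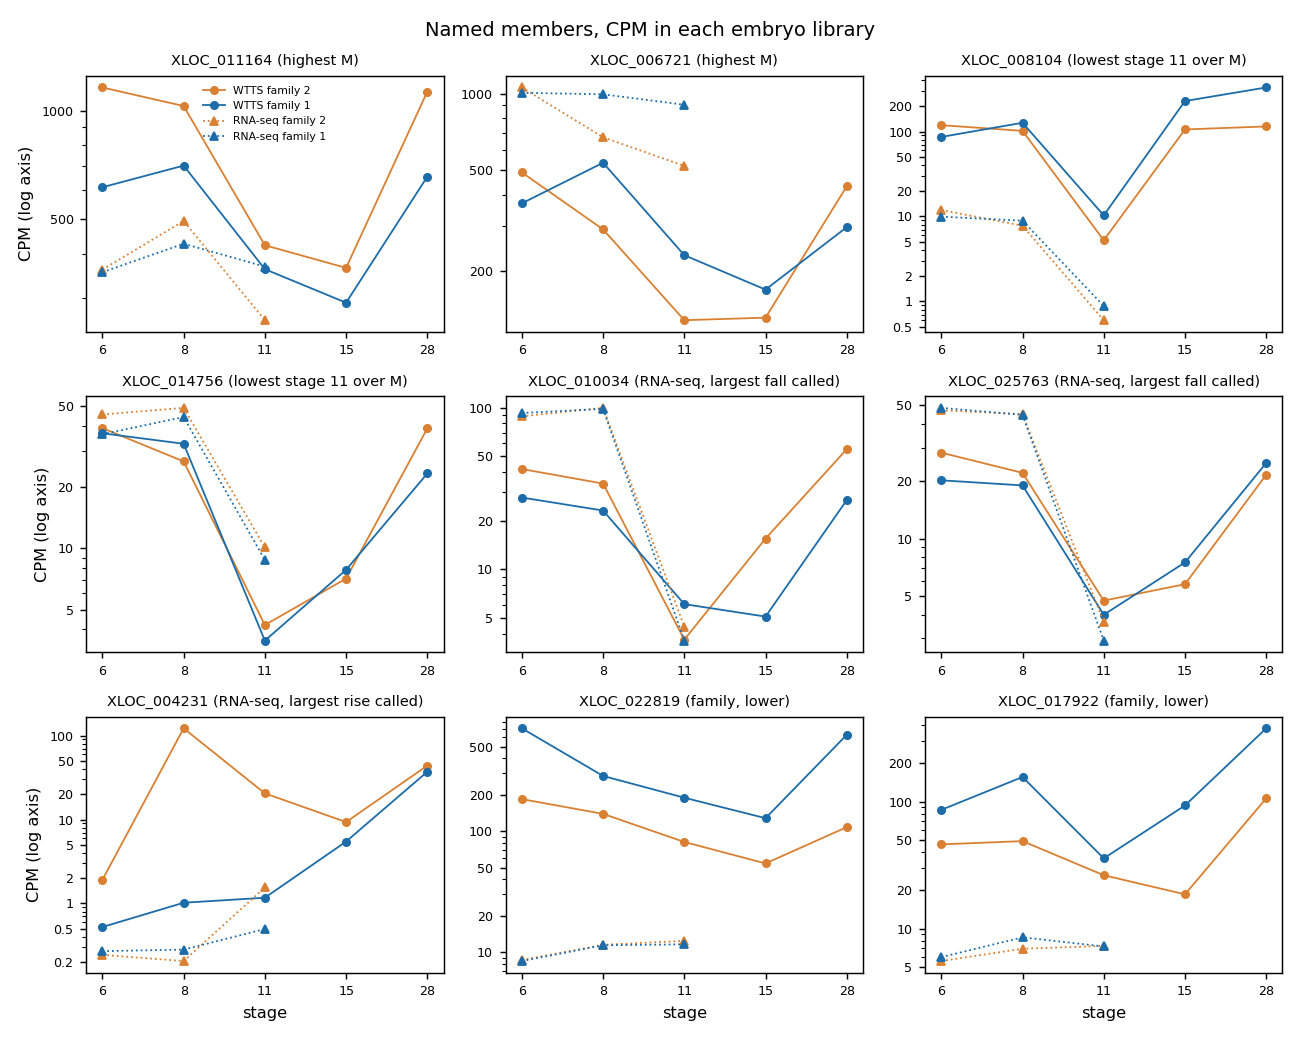
CPM on a log axis in each embryo library for 9 named members, with stages in order but not to scale in time; orange is family 2 and blue is family 1, solid lines with circles are WTTS and dotted lines with triangles RNA-seq. XLOC_010034 and XLOC_025763 fall in both methods, XLOC_004231 rests on 122 CPM in 1 WTTS library, and XLOC_022819 and XLOC_017922 lie far higher in WTTS than in RNA-seq.

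How far WTTS exceeded RNA-seq in a member went with its RNA-seq change. In 24 members M was at least 5 times the RNA-seq CPM of stages 6 and 8, including the member with no such RNA-seq count. Of the 23 tested, 3 (13.0%) were called lower, below the 29.7% of all features tested. The median log2 change of the 23 was -0.25. Called lower were 31 of 66 (47.0%) with a median of -0.61 where M was 2 to 5 times RNA-seq. The share was 115 of 155 (74.2%) with a median of -1.20 between 0.5 and 2 times. It was 26 of 28 (92.9%) with a median of -2.08 under 0.5 times. Median spans in that order were 8315, 14277, 23895 and 44332 bp. RNA-seq CPM grows with transcript length while WTTS counts ends, and the earlier RNA-seq level enters both the split and the change, so this is a description without a test.

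No member passed the edgeR threshold in RNA-seq before gastrulation. Stage 8 against stage 6 gave 0 calls among 19413 features by edgeR (0.0%), and 25 members (9.19%) had an unadjusted p below 0.05, against 1307 features (6.73%). The members' median log2 change was 0.12. limma-voom also called 0 features. DESeq2 called 79 features, 52 higher and 27 lower, and 2 of the 27 were members.

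The route back differed among members at stage 15, a stage the rule did not use. In 154 members (56.4%) the stage 15 mean was at most 0.5 of M. In 83 (30.4%) it lay between 0.5 and 0.8 of M, and in 36 (13.2%) it was already at least 0.8 of M. These shares were 58.9%, 17.3% and 23.8% over all maternal features. Over all features they were 36.4%, 10.7% and 31.9%, where features at 0 in both stage 15 and M count in no range. Stage 15 was below stage 11 in 87 members (31.9%), whose low stage 11 levels had chosen them. It was below in 75.03% of features that dip without return, 70.9% of maternal features without a dip and 47.7% of all features. For features that dip without return the counts in the 3 ranges were 2364, 112 and 15. The median of stage 15 over M was 0.470 in members and 0.188 in features that dip without return, but the requirement at stage 28 chose between the classes, and no test is given. With TMM scaling the members' median was 0.704 and 77 were at most 0.5 of M, so how many count as still low at neurula depended on scaling.

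Members back early had the higher tailbud levels relative to M, by their medians. Stage 28 over M had a median of 1.72 in the 36 members back at stage 15, 1.28 in the 83 in between and 1.03 in the 154 still low. Their median M was 32.6, 41.2 and 43.3 CPM in the same order. Stage 28 was at least M in 173 members (63.4%) and at least 2 times M in 41 (15.0%). In RNA-seq at stage 11, 18 of the 36 (50%), 46 of the 83 (55.4%) and 111 of 153 tested (72.5%) were called lower. The share over all features tested was 29.7%, and the differences between the members' shares were not tested. M stands in both ratios, which ties them to each other.

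**Figure D5:**
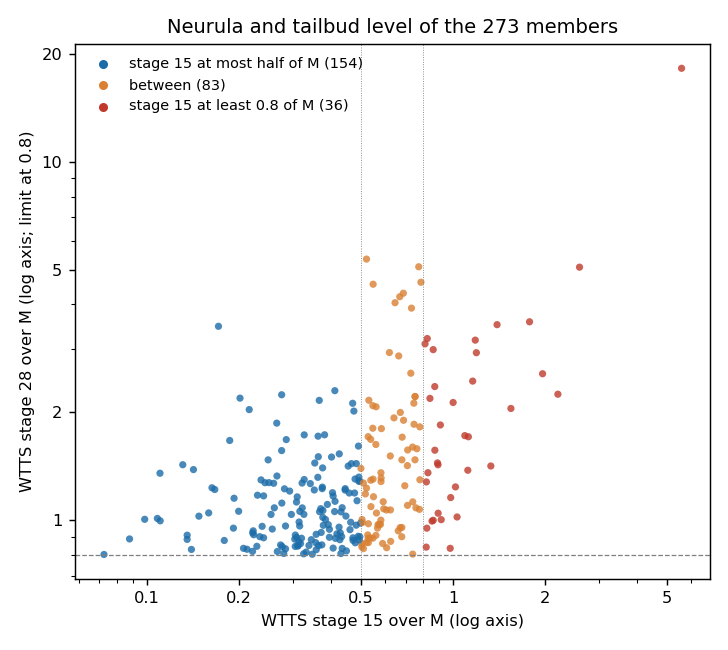
WTTS level at stage 15 over M against stage 28 over M for the 273 members, both on log axes, with the stage 28 limit of 0.8 dashed and stage 15 levels of 0.5 and 0.8 dotted. Blue points were at most 0.5 of M at stage 15 (154), orange in between (83) and red at least 0.8 (36); the highest point is XLOC_013409 at 5.57 and 18.3.

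XLOC_013409 had the highest stage 15 level over M, on scaffold_4 from 116128452 to 116151908, plus strand. Its WTTS levels were 28.2 and 16.2 CPM at stage 6 in family 2 and family 1, 38.4 and 18.3 at stage 8, 11.6 and 4.69 at stage 11, 162 and 120 at stage 15, and 534 and 390 at stage 28. Both families passed M by far at neurula. RNA-seq gave 36.3 and 30.6 CPM at stage 6, 31.5 and 28.1 at stage 8, and 6.73 and 5.06 at stage 11, a log2 change of -2.58 (SE 0.22, edgeR adjusted p = 0.000138). Both methods thus had it low at gastrula, although it overlaps 2 features on the other strand.

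XLOC_016773 was next, on scaffold_5 from 75755421 to 75791966, minus strand. Its WTTS level was 20.1 and 30.1 CPM at stage 6 in family 2 and family 1, 24.1 and 21.7 at stage 8, 11.0 and 12.7 at stage 11, 63.9 and 60.4 at stage 15, and 130 and 114 at stage 28. RNA-seq gave 18.4 and 21.6 CPM at stage 6, 29.4 and 23.3 at stage 8, and 29.0 and 31.1 at stage 11. Stage 11 was low in WTTS and at or above most earlier values in RNA-seq. The RNA-seq log2 change of 0.24 (SE 0.17, edgeR adjusted p = 0.258) was not called.

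At the other end, XLOC_016603 had the lowest stage 15 level over M, on scaffold_5 from 49599316 to 49611560, minus strand. In WTTS it had 47.2 and 21.5 CPM at stage 6 in family 2 and family 1, 35.8 and 21.7 at stage 8, 6.83 and 2.58 at stage 11, 3.55 and 1.02 at stage 15, and 25.9 and 24.7 at stage 28. Stage 15 rested on 8 and 3 counts, and stage 28 stood at 0.802 of M, the member nearest to that limit. Within family 2 stage 28 was below 0.8 of the family's own mean of stages 6 and 8. RNA-seq gave 34.7 and 31.5 CPM at stage 6, 41.0 and 34.9 at stage 8, and 7.05 and 3.42 at stage 11. Its log2 change was -2.91 (SE 0.34, edgeR adjusted p = 0.000477).

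XLOC_002179 followed, on scaffold_1 from 52988357 to 53016699, minus strand. WTTS gave 30.3 and 43.5 CPM at stage 6 in family 2 and family 1, 67.7 and 65.2 at stage 8, 18.4 and 18.1 at stage 11, 5.32 and 3.75 at stage 15, and 49.8 and 41.8 at stage 28. It went on falling after gastrula in both families, and stage 28 of family 1 was below 0.8 of that family's own mean of stages 6 and 8. RNA-seq gave 21.4 and 27.9 CPM at stage 6, 41.5 and 39.9 at stage 8, and 16.9 and 22.2 at stage 11, where family 1 overlapped stage 6. The log2 change was -0.84 (SE 0.20, edgeR adjusted p = 0.00901), and against stage 6 alone it was -0.53 and not called.

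Family was tested in WTTS with stage accounted for. The rule used means over the families and not this contrast, but on the same libraries. A feature could enter through the family where it was high, so the members' share of calls is not free of that choice. Of the 273 members, all tested, edgeR called 16 lower and 0 higher in family 2 than in family 1, against backgrounds of 2.6% lower and 0.685% higher among 14013 features. The 16 are 5.86% of members. The median log2 difference was -0.21 over members, against -0.01 over all features tested, whereas by plain CPM the median member stood at 1.03 in family 2 over family 1. At an unadjusted p below 0.05 there were 87 members (31.9%), against 20.6% of features. DESeq2 called 25 members lower (9.16%) and 1 higher, against 4.0% and 1.36% of features. limma-voom called 19 lower (6.96%) and 1 higher, against 3.98% and 1.36%. Stages served as replicates within a family, which limits the calls to the families sampled. Calls fell over all features when a stage was left out, other than stage 6. Members called lower numbered 6 (2.20%) without stage 8, against 0.638% of features, 4 (1.47%) without stage 15, against 0.436%, and 6 (2.20%) without stage 28, against 0.878%. Without stage 6 they numbered 25 (9.16%), against 3.17%.

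The members called lower in family 2 had closer family levels in RNA-seq than in the WTTS libraries that gave the calls. Mean WTTS CPM in family 2 over family 1 had a median of 0.560 in the 16, from 0.292 to 0.714. The RNA-seq value of the same members had a median of 0.905, from 0.670 to 1.03. The WTTS means cover all 5 stages and the RNA-seq means only the 3 stages with RNA-seq, so this contrast mixes method and stage. In the adult female, where the 2 repeats are the same animal, repeat 2 over repeat 1 had a median of 0.606 in the 16, from 0.239 to 1.20, against 1.11 in the other 257 members. In 11 of the 16 M was at least 2 times the RNA-seq level, against 79 of the 257. The 16 had a median span of 9002 bp, against 21467 bp. In RNA-seq at stage 11, 5 of the 16 (31.3%) were called lower, against 170 of 256 (66.4%). The 31.3% was near the 29.7% of all features tested. These sets were compared after their values were seen, and the part of library handling in the family calls was not tested.

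XLOC_022819 had the smallest family p, on scaffold_8 from 4994376 to 5009327, plus strand. WTTS values were 184 CPM in family 2 against 708 in family 1 at stage 6, 139 against 286 at stage 8, 81.4 against 189 at stage 11, 54.1 against 128 at stage 15, and 108 against 626 at stage 28. Family 2 was lower at every stage, by a log2 of -1.86 (SE 0.23, edgeR adjusted p = 0.00293). Against each family's own mean of stages 6 and 8, family 1 met both the dip limit and the return limit. Family 2 met neither, so the feature entered through family 1. In RNA-seq it had 8.61 against 8.44 CPM at stage 6, 11.5 against 11.4 at stage 8, and 12.4 against 11.6 at stage 11. The RNA-seq values of the families were close at each stage, and the stage 11 log2 change of 0.13 (SE 0.20, edgeR adjusted p = 0.585) was not called. The female repeats held 469 and 1810 CPM in repeat 2 and repeat 1.

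XLOC_017922 was next by family p, on scaffold_6 from 26146907 to 26196572, plus strand. In WTTS it had 46.0 CPM in family 2 against 86.0 in family 1 at stage 6, 48.8 against 156 at stage 8, 26.3 against 35.7 at stage 11, 18.6 against 93.1 at stage 15, and 106 against 377 at stage 28. The log2 difference was -1.69 (SE 0.26, edgeR adjusted p = 0.00831). Taken alone, family 1 met both limits, while family 2 met the return limit but not the dip limit. RNA-seq gave 5.55 against 5.96 CPM at stage 6, 6.94 against 8.53 at stage 8, and 7.30 against 7.23 at stage 11. There too the families were close, and the stage 11 log2 change of -0.02 (SE 0.23, edgeR adjusted p = 0.934) was not called. The female repeats held 236 and 987 CPM in repeat 2 and repeat 1.

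Adult levels were described without a test. In the female, 199 members (72.9%) were at least 0.8 of M, against 49.2% of features that dip without return, 49.0% of maternal features without a dip and 58.5% of all features. At most 0.5 of M was found for 24 members (8.79%), against 17.2%, 19.3% and 44.4% of those classes. Features at 0 in both the female and M count in both ranges, which raises the shares over all features. The median member stood at 1.19 and 1.08 of M in repeat 2 and repeat 1. In the mixed-sex pool it stood at 1.07 in both of trials 6 and 7, at 0.706 in trial 5 and at 0.128 to 0.441 in trials 1 to 4. In trials 2, 3 and 4 a single feature held 31.5% to 39.1% of the counts, and these trials also differ in protocol. The female is 1 animal and the pool 1 RNA sample, so these values carry no spread between animals.

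The genome positions of members were described without a test. The members lay on 25 scaffolds, and 135 were on the plus strand. On scaffolds 1 to 10 lay 258 members (94.5%), against 91.8% of maternal features and 78.9% of all features. Of neighbouring members, 3 pairs lay within 10 kb of each other, and 1 of these pairs overlapped, counts given without a background. Their span, introns included, had a median of 20351 bp from 1394 to 353947 bp, against 18993 bp in features that dip without return. A feature on the other strand overlapped 70 members (25.6%), against 20.6% of features that dip without return and 25.8% of maternal features without a dip. In RNA-seq, 46 of 69 tested members with such an overlap (66.7%) were called lower at stage 11, against 129 of 203 without one (63.5%). Over all features tested the share was 29.7%.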

How the data were processed

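The authors deposited raw counts per feature for 27836 features and 26 libraries, not normalized. Per the labels' protocols, Trizol RNA was fragmented, selected for poly(A), copied to cDNA, sized and amplified for WTTS, and Illumina and Ion Torrent preparations were used. The sources used here do not give the aligner, counting program, build, annotation, use of strand or the instrument of each library. No identifier (0 of 27836) matched the reference gene table (assembly UCB_Xtro_10.0), so planned gene lists could not be used, and the naming rule was reduced to the 2 leading members per list: highest M, lowest stage 11 over M, largest RNA-seq change called, smallest family p, and highest and lowest stage 15 over M. The members and lists were chosen with earlier results of these data known.

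CPM were computed from column totals. Tests used edgeR 4.0.16 in R 4.3.3 (TMM, filterByExpr, quasi-likelihood F-test, Benjamini-Hochberg), with stage as the factor over the 6 embryo RNA-seq libraries, and stage plus family over the 10 embryo WTTS libraries. SE is the absolute log2 change over the square root of F. The RNA-seq p-values measure the spread between 2 families. Those of the family comparison measure how far the family difference varied from stage to stage, since stage itself was fitted. Alternatives were DESeq2 1.42.0 and its size factors, limma-voom (limma 3.58.1), no filter, family as a replicate block, single contrasts and libraries left out, and other limits and scalings of the rule. Scripts were tested on simulated data, and other steps used Python 3.11.15. No 2 replicates agreed within sampling noise (chi-square per degree of freedom at least 17.9).

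Samples are paired by family, which the labels name at each stage. Within families, deviations from stage means correlated in 10 of 10 stage pairs of WTTS (0.114 to 0.415) and 3 of 3 of RNA-seq (0.266 to 0.554).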

Additional observations from a re-analysis of the deposited data

Results flagged for a closer look

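In 7 members the direction at stage 11 was opposite in the 2 methods in every library: both WTTS libraries lay below all 4 earlier ones and both RNA-seq libraries above all 4 earlier ones. That is 2.56% of members, against 1.08% of features that dip without return, 3.75% of maternal features without a dip and 1.6% of all features. RNA-seq CPM at stage 11 over the mean of stages 6 and 8 was 1.84 for XLOC_011216 and 1.56 for XLOC_000743. It was 1.44, 1.40, 1.40, 1.31 and 1.12 for XLOC_023280, XLOC_006831, XLOC_012721, XLOC_025721 and XLOC_020658. Their WTTS stage 11 level over M was between 0.381 and 0.4999. edgeR called none of the 7 in RNA-seq, with adjusted p from 0.0517 to 0.911. The rule fixed the WTTS direction, the difference between the methods was not tested, and 2 of the 7 overlap a feature on the other strand.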

How the results depend on the processing

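Membership depended on scaling and limits: the rule chose 169 features with TMM scaling, 144 with DESeq2 size factors, 180 with totals without the 12 large features (added after seeing the data), 103 with M of at least 50 CPM, 83 with stage 11 at most M divided by 3 and 173 with stage 28 at least M. It chose 221 to 300, the cap, with 1 library left out. With 1 RNA-seq library left out, the members' median log2 change ran from -1.155 to -0.942. With family as a replicate block 191 members (70.2%) were called lower, against 32.3% of all features. The share called lower was 78.7%, 81.8% and 71.7% for the lists by TMM, by DESeq2 size factors and by reduced totals (added after seeing the data). Members called higher numbered 2 with DESeq2 size factors, 4 with DESeq2, 2 with limma-voom, 3 with the block, 4 against stage 6 alone and 0 to 2 with 1 library left out. Of all features, 34.6% were called higher with DESeq2 size factors, 31.2% with DESeq2 and 34.3% with limma-voom. It was 36.3% with the block and 31.0% against stage 6 alone. Stage 8 against stage 6 had 2 members (0.735%) lower with DESeq2, against 0.139% of all features. Members lower in family 2 numbered 25 (9.16%) with DESeq2 and 36 (13.2%) with no filter, against 4.0% and 4.19% of all features. Without stages 6, 8, 15 and 28 they numbered 25, 6, 4 and 6, against 3.17%, 0.638%, 0.436% and 0.878%. With 1 library left out they numbered 4 to 28, against 0.441% to 3.85%. Members higher in family 2 numbered 1 with DESeq2, 1 with limma-voom and 2 with no filter, against 1.36%, 1.36% and 1.54% of all features. The RNA-seq direction turned for XLOC_017922 without family 1 of stage 8 (0.025, with 1 library left out -0.12 to 0.025) and against stage 6 alone (0.14), and for XLOC_022819 against stage 8 alone (-0.030), none of them called. The cause of these shifts was not tested. At stage 11, 44 members had under 50 WTTS counts in all, which limits the precision of their dip.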
